A study of Mus musculus with 6 samples.

Results

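The genes described here are 10 genes that mark the path of a B cell from the pro-B to the mature stage: Vpreb1, Vpreb3, Igll1, Rag1, Rag2, Il7r, Pax5, Ebf1, Cd79a and Ms4a1. They were chosen by name, and all 10 were found among the 37991 genes of a count table of bone endothelial cells (BECs), the cells that line the blood vessels of bone. The table holds 6 RNA sequencing libraries from c57/Bl6 mice aged 12 weeks, 3 from females (female 1 to 3) and 3 from males (male 1 to 3). No library carries a treatment or an allele. The sample labels give the tibia as the tissue and endomucin, a surface protein of the vessel wall, as the marker used for purification. The methods of the study describe crushed tibiae and femurs, lysis of red blood cells, capture of cells on beads coated with an endomucin antibody, and sequencing of the 3 samples of each set with the best RNA quality. Nothing in the labels says that libraries of a sex came from separate animals or cultures, so the p-values below measure the spread between these libraries, which may be technical. The comparison asked whether the level of these genes differed between females and males.

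B cells form in bone marrow. EBF1 and PAX5 are the transcription factors that set and hold the B lineage, RAG1 and RAG2 together cut the immunoglobulin loci so that variable segments can be joined, and the interleukin 7 receptor, whose α chain is encoded by Il7r, keeps early B cell precursors alive and dividing. VPREB1 and the λ5 protein encoded by Igll1 form the surrogate light chain, which pairs with the μ heavy chain (Ighm) and the signalling subunits CD79A and CD79B in the pre-B cell receptor. VPREB3 is a related endoplasmic reticulum protein of B cell precursors, and Ms4a1 encodes CD20, a surface protein that appears late in the precursors and stays on mature B cells.

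Promoter sequences of 6 of the genes are given first, since each of 2 pairs of neighbours is described together below. RAG1 and RAG2 are encoded 5728 bases apart on chromosome 2, and Igll1 and Vpreb1 lie 4415 bases apart on chromosome 16 (both distances from GENCODE M39 on GRCm39). The windows are RefSeq's, on build GRCm38.p6, and run from 250 bases before to 50 bases after the start site, 5′ to 3′ on the strand of the gene. They lie at chr2:101649483-101649782, minus strand (Rag1), chr2:101624462-101624761, plus strand (Rag2), chr16:16863936-16864235, minus strand (Igll1), chr16:16869206-16869505, minus strand (Vpreb1), chr10:75948050-75948349, plus strand (Vpreb3) and chr7:24897247-24897546, plus strand (Cd79a). Capitals mark matches, on either strand, to any of 4 motifs: CCCNNGGG (the core bound by EBF factors), CAGNTG (the E-box of E proteins such as TCF3), TGGGAA (the Ikaros core) and ATTTGCAT (the octamer bound by OCT factors).

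Rag1: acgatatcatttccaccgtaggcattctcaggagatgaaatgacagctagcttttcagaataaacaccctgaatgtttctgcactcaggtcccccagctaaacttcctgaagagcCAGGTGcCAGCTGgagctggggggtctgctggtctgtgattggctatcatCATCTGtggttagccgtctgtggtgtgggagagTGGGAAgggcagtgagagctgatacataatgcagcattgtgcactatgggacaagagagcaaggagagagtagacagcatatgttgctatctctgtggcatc

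Rag2: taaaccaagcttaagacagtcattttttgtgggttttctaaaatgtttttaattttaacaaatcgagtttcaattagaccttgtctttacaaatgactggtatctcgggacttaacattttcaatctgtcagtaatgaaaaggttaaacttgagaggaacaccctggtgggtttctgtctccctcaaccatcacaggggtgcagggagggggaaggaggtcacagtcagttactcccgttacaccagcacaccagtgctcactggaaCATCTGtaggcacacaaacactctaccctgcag

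Igll1: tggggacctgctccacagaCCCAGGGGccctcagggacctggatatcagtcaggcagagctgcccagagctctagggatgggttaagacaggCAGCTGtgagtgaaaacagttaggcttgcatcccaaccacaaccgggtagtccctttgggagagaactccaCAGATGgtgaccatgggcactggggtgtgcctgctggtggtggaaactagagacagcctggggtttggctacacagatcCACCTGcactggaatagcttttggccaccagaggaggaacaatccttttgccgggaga

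Vpreb1: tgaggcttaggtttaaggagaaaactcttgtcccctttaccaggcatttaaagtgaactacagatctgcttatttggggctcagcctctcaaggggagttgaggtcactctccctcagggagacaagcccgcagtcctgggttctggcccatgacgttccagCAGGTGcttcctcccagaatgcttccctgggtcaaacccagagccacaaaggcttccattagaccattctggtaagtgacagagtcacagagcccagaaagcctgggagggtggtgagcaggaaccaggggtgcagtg

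Vpreb3: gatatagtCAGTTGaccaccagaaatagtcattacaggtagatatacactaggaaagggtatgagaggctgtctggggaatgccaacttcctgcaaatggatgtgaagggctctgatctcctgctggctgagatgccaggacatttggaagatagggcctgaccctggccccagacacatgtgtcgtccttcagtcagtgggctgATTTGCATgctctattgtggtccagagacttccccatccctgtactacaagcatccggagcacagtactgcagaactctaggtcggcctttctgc

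Cd79a: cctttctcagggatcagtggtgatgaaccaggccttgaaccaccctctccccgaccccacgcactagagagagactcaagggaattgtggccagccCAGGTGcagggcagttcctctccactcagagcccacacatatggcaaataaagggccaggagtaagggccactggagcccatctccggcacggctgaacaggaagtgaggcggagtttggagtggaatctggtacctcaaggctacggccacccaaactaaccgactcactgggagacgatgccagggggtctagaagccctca

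Of the 10 genes, 9 had a RefSeq window, with 10 windows in all because Ebf1 has 2. An E-box stood in 7 of these 10 windows, against 51.4% of the 32851 windows of the table. The Igll1 window held the only exact match to the EBF core, CCCAGGGG at position -231 from the start site, a motif found in 13.7% of all windows. The only octamer among the 10 lay at position -45 of Vpreb3, and 1.74% of all windows held one. The Ikaros core was found in 2 of the 10 windows, at -52 of Rag1 and in the second window of Ebf1, against 25.6% of all windows. Rag1 held 3 E-boxes at -135, -128 and -85, whereas its neighbour Rag2 held 1, at position 18 after the start. In the Pax5 window none of these letters occurred. A match describes the letters and shows no binding. A window without a match may still hold a site whose letters differ from these motifs. The Vpreb1 window lay wholly inside the gene as drawn by GENCODE M39, where Vpreb1 is named Vpreb1a.

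Libraries held between 47678806 and 58325745 counts. Levels are given in CPM, counts relative to library size after TMM scaling in edgeR, and the floor set for detection, 3 counts, equals 0.0477 to 0.0639 CPM. Amplified reads are not independent molecules, and the floor reflects counting error alone. The lowest value of any of the 10 genes was that of Rag2 in female 2, at 156 counts. No 2 libraries were alike within counting error: for the closest pair, female 2 and female 3, the chi-square per degree of freedom was 31.5. This measure compares with counting error alone, which repeats of the same sample could also exceed. Together the 10 genes summed to between 1847 and 2062 CPM in females and between 1877 and 2194 CPM in males, or 0.182% to 0.230% of a library's counts. Of 22 endothelial markers none was at 0, yet their sum lay between 459 and 668 CPM in females and between 276 and 422 CPM in males. Emcn, which encodes endomucin, stood between 3.09 and 10.5 CPM over the 6 libraries. In every library the 10 B cell genes had a larger sum than the 22 endothelial markers. Per kilobase of annotated exon the sums lay between 752 and 916 CPM per kb for the 10 genes and between 37.9 and 115 CPM per kb for the endothelial markers. In such bulk libraries fewer cells of a type and less RNA per cell cannot be told apart.

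To set levels side by side between single genes, CPM were divided by annotated exon length (kilobases of exon in GENCODE M39, which may not be the annotation behind the counts). On this scale Cd79a was highest, with a mean of 560 CPM per kb and a range of 496 to 636 over the 6 libraries. Vpreb3 (mean 104, range 76.7 to 128.5 CPM per kb) and Ms4a1 (mean 80.9, range 70.2 to 87.4 CPM per kb) overlapped each other, and Pax5 came next at 30.9 CPM per kb, ranging from 24.2 to 40.3. Rag1 had a mean of 13.2 CPM per kb and Ebf1 one of 12.9 CPM per kb, and their ranges overlapped. Vpreb1 (7.17 CPM per kb), Igll1 (5.59 CPM per kb) and Il7r (5.18 CPM per kb) had overlapping ranges. Within libraries Vpreb1 lay above Igll1 in 6 of 6, whereas Igll1 lay above Il7r in 4 of 6. Before division by length, Igll1 stood at 1.20 to 1.55 times Vpreb1, so the order of these 2 rested on the annotated lengths. Rag2 was lowest at 1.92 CPM per kb, and its highest library, at 2.63, stayed below the lowest of Il7r, at 2.80. Cd79a, Vpreb3 and Ms4a1 therefore stood above the genes of the surrogate light chain, the recombinase and the interleukin 7 receptor.

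**Figure D1:**
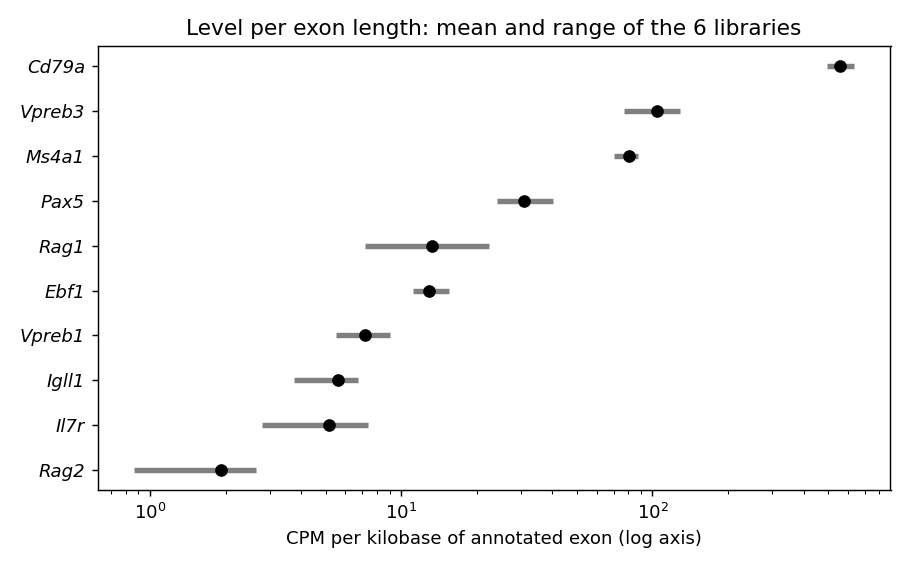
Level of each B cell development gene in CPM per kilobase of annotated exon, on a log axis; points are means and grey bars run from the lowest to the highest of the 6 libraries. Cd79a stands highest, at 560 CPM per kb, and Rag2 lowest, at 1.92 CPM per kb.

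Between the sexes no difference in the 10 genes passed the test. In edgeR's quasi-likelihood test, with p-values adjusted by Benjamini-Hochberg over 19480 genes, 0 of the 10 were called at an adjusted p under 0.05, against 0.0411% of all genes tested. DESeq2's Wald test also called 0 of the 10, against 1.92% of the genes to which it gave an adjusted p. At an unadjusted p under 0.05, 1 of the 10 (Pax5) passed in edgeR, against 9.79% of all tested genes. Log2 fold changes of males over females had a median of 0.16 over the 10 genes and of -0.001 over all genes tested, with 8 genes above 0 and 2 below (50.2% of all tested genes lay below 0). This median rested on the choice of libraries: it was -0.003 without female 2, 0.03 without male 1 and 0.36 without female 1. The values for each sex overlapped for 9 of the 10 genes. The exception was Pax5, higher in all 3 males, and 14.5% of all tested genes had no overlap in either direction, 7.25% with males higher.

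**Figure D2:**
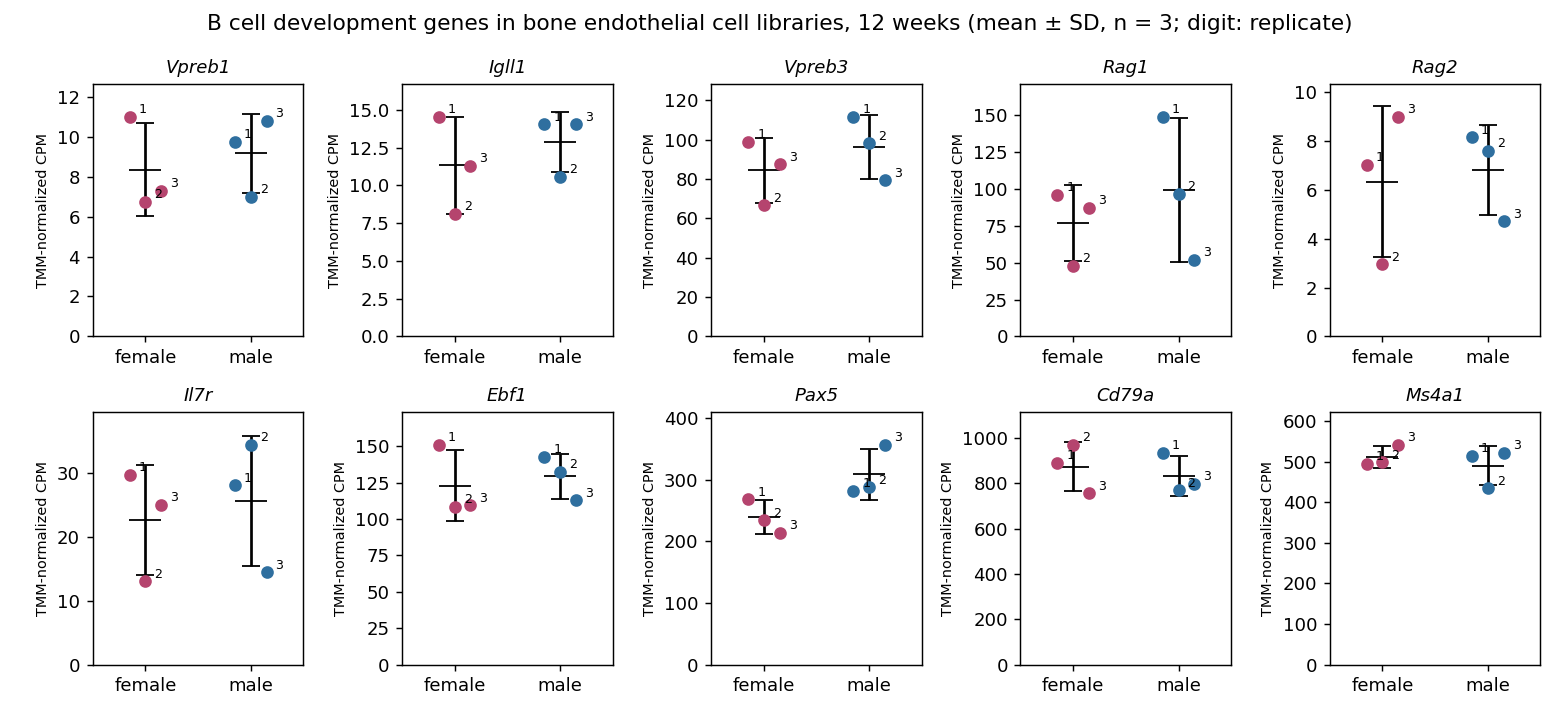
TMM-normalized CPM of each gene in each library, from 0 on a linear axis; points are libraries with their replicate number, and bars give the mean and SD of the 3 libraries of a sex. Only for Pax5 do the male points all lie above the female points; for Rag1, Rag2 and Il7r the points labelled 2 in females and 3 in males lie lowest.

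The recombinase genes and Il7r varied most. Rag1 stood at 96.1, 47.8 and 87.2 CPM in females 1 to 3 and at 149, 96.5 and 51.7 CPM in males 1 to 3. Female 2 and male 3 were the lowest, the other 4 libraries lay between 87.2 and 149 CPM, and male 1 was 3.12 times female 2. The sexes overlapped, with means of 77.0 ± 25.7 CPM in females and 99.0 ± 48.6 CPM in males (SD, n = 3 each). The log2 fold change of males over females was 0.36 with a standard error of 0.37 (edgeR adjusted p = 0.796). Rag2, whose product is the partner of RAG1, stood at 7.05, 2.95 and 9.01 CPM in females and at 8.16, 7.61 and 4.72 CPM in males. Again female 2 and male 3 were lowest, whereas the highest library was female 3 rather than male 1. Its log2 fold change was 0.11 with a standard error of 0.37 (edgeR adjusted p = 0.951).

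Il7r stood at 29.8, 13.1 and 25.1 CPM in females and at 28.1, 34.5 and 14.5 CPM in males. Female 2 and male 3 were once more the lowest, each below the other libraries of its own sex. The means were 22.7 ± 8.62 CPM in females and 25.7 ± 10.2 CPM in males (SD, n = 3 each), and the log2 fold change was 0.18 with a standard error of 0.36 (edgeR adjusted p = 0.906). Il7r is also used by T cells and other lymphocytes. The 12 T and NK cell markers summed to between 101 and 114 CPM in females and between 83.0 and 91.4 CPM in males. None was at 0 in any library. Cd4 was the largest of them, between 27.8 and 50.7 CPM, whereas Lck, the next highest, lay between 11.55 and 15.68 CPM. Only for Cd4 did the sexes not overlap, with females higher. The part of T cells and other lymphocytes in the Il7r values was not tested.

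The highest library of Rag1, Rag2 and Il7r was 3.12, 3.05 and 2.63 times the lowest. These were 3 of the 10 genes with a ratio of at least 2.5, against 4.48% of the 12258 tested genes with a mean of at least 5 CPM. Over the 10 genes the median ratio was 1.67, and over those 12258 genes it was 1.43. Female 2 and male 3 were the lowest 2 libraries for 4 of the 10 genes (Rag1, Rag2, Il7r and Vpreb3), an order shared by 6.99% of all tested genes. This order was noticed after the values were seen and no test was run on it. Relative to Ms4a1, Rag1 ranged from 0.0958 in female 2 and 0.0993 in male 3 to 0.289 in male 1 (ratios of CPM). Likewise Il7r relative to Ms4a1 was 0.0262 in female 2 and 0.0278 in male 3, with the other 4 libraries between 0.0464 and 0.0793. The ratio of Rag1 to Rag2 itself was not constant, between 9.68 in female 3 and 18.2 in male 1. Both genes lie within the gene Iftap in GENCODE M39, on the same strand for Rag1 and on the other strand for Rag2, and whether counting used the strand is not given in the sources used here.

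**Figure D3:**
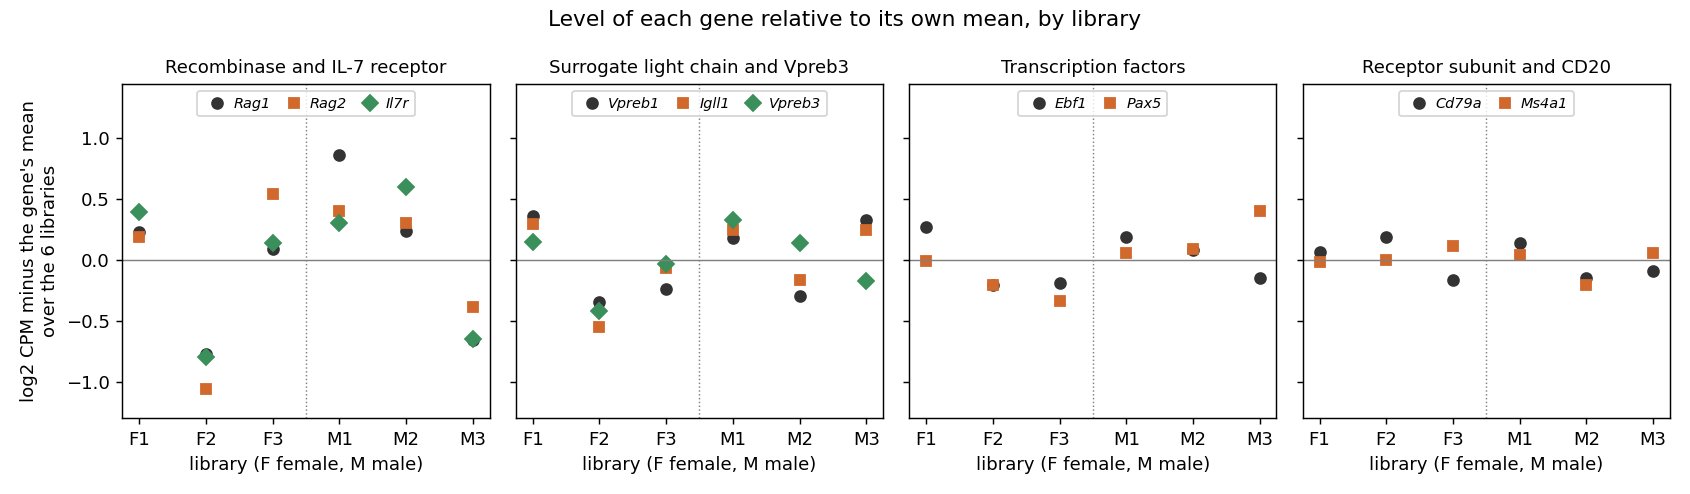
Log2 CPM of each gene minus its own mean over the 6 libraries (vertical axis), by library (horizontal axis; F females, M males), in 4 panels by role. Rag1, Rag2 and Il7r dip together in female 2 and male 3, Vpreb1 and Igll1 do not dip in male 3, and Cd79a and Ms4a1 stay near 0 in all libraries.

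The surrogate light chain genes followed another order. Vpreb1 stood at 11.01, 6.74 and 7.29 CPM in females and at 9.74, 6.98 and 10.8 CPM in males, so that male 3, low for the recombinase, was the highest library but female 1. Its log2 fold change was 0.13 with a standard error of 0.24 (edgeR adjusted p = 0.892), and it lay between 0.000 without male 3 and 0.40 without female 1. Igll1 stood at 14.5, 8.10 and 11.3 CPM in females and at 14.0, 10.6 and 14.0 CPM in males, and again female 2 was lowest and male 3 among the high libraries. Its log2 fold change was 0.18 with a standard error of 0.22 (edgeR adjusted p = 0.829). The 2 neighbours kept a ratio of Igll1 to Vpreb1 between 1.20 and 1.55 in the 6 libraries. Vpreb2, the close copy of Vpreb1, was lower per kb (mean 1.74 CPM per kb), with 3.32 ± 0.862 CPM in females and 2.77 ± 1.02 CPM in males (SD, n = 3 each) and a log2 fold change of -0.27 with a standard error of 0.34 (edgeR adjusted p = 0.840). The transcripts of both copies were identical at 749 of 769 aligned bases (97.4%), and 39.1% of the 40-base windows of the Vpreb1 transcript occur in that of Vpreb2 (13.9% of 100-base windows). Reads may thus have been split between the copies or left out, and the level of each is uncertain. Top3b overlaps Vpreb1 on the other strand.

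Per kb, Vpreb3 (mean 104 CPM per kb) lay above Vpreb1 (mean 7.17 CPM per kb) in all libraries. On the CPM scale Vpreb3 stood at 99.1, 66.8 and 87.4 CPM in females and at 112, 98.2 and 79.4 CPM in males, lowest in female 2 and male 3 and highest in male 1. The means were 84.4 ± 16.4 CPM in females and 96.5 ± 16.3 CPM in males (SD, n = 3 each), and the log2 fold change was 0.19 with a standard error of 0.17 (edgeR adjusted p = 0.757). Its sign stayed positive when each library was left out in turn, between 0.05 and 0.33. Of the 7 genes of the pre-B cell receptor list, which adds Vpreb2, Cd79b and Ighm to members already named, 0 were called by edgeR or DESeq2, 0 had an unadjusted edgeR p under 0.05, and the median log2 fold change was -0.01. Ighm, the μ heavy chain, had the highest level per kb of the 7 (mean 1055 CPM per kb) and stood at 2060 ± 297 CPM in females and 1917 ± 390 CPM in males (SD, n = 3 each).

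Of the transcription factors, Pax5 showed the only order of all 3 males above all 3 females. Pax5 stood at 269, 235 and 214 CPM in females and at 282, 288 and 357 CPM in males. Male 3 was the highest library, and the lowest male, at 282 CPM, lay above the highest female, at 269 CPM. The means were 239 ± 27.6 CPM in females and 309 ± 41.7 CPM in males (SD, n = 3 each). The log2 fold change was 0.37 with a standard error of 0.14, and it did not pass the adjustment over all genes (edgeR adjusted p = 0.430). It stayed positive when each library was left out in turn, from 0.25 without male 3 to 0.47 without female 1, with edgeR adjusted p-values between 0.357 and 0.990. The transcripts Gm12462 and Mir5120, which overlap Pax5 in GENCODE M39, were counted as genes of their own.

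Ebf1 stood at 151, 109 and 110 CPM in females and at 143, 132 and 113 CPM in males. Female 1 and male 1 were highest, the values of the sexes overlapped, and the log2 fold change was 0.07 with a standard error of 0.16 (edgeR adjusted p = 0.915). The ratio of Pax5 to Ebf1 lay between 1.78 and 2.18 in 5 libraries and was 3.16 in male 3. Ebf1 is also expressed by marrow stromal cells. The sum of 10 stromal markers lay between 1505 and 3128 CPM in females and between 1253 and 2421 CPM in males, none was at 0, and it was lowest in male 2 and female 2, of which female 2 was the lowest library for Ebf1 and male 2 was not. The part of stromal cells in the Ebf1 values was not tested.

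Of the 19 B lineage transcription factors listed, 0 were called by edgeR or DESeq2, 2 (Pax5 and Spi1) had an unadjusted edgeR p under 0.05, and the median log2 fold change was 0.07, with 14 genes above 0 and 5 below. Tcf3, which encodes the E proteins E12 and E47, had a log2 fold change of 0.05 with a standard error of 0.17 (edgeR adjusted p = 0.946). Foxo1, an activator of the recombinase genes, stood at 102 ± 9.01 CPM in females and 106 ± 16.9 CPM in males (SD, n = 3 each). Ikzf1 and Ikzf3, the Ikaros and Aiolos genes, had log2 fold changes of 0.12 and -0.04, and Pou2af1, the coactivator of OCT factors, one of 0.07. Lef1, a factor of early B cell precursors, had a log2 fold change of 0.29 with a standard error of 0.17 (edgeR adjusted p = 0.606). None of these differed beyond the spread between libraries. Female 2 and male 3 were the lowest 2 libraries for 8 of the 19 (Tcf3, Ikzf1, Spib, Irf4, Bach2, Lef1, Sox4 and Myb), against 6.99% of all tested genes. They were not for the other 11, among them Pax5, which was highest in male 3. Of these 8, Myb, a factor of progenitors, was singled out after its values were seen: it stood at 86.3, 40.3 and 55.7 CPM in females and at 83.9, 87.3 and 41.1 CPM in males.

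The genes of the receptor and of CD20 were the steadiest of the 10. Cd79a stood at 890, 969 and 756 CPM in females and at 934, 768 and 798 CPM in males. Its highest library, female 2, was the lowest for Rag1 and Rag2, and it was 1.28 times its lowest, female 3. The means were 872 ± 108 CPM in females and 833 ± 88.4 CPM in males (SD, n = 3 each), and the log2 fold change was -0.07 with a standard error of 0.15 (edgeR adjusted p = 0.925). The ratio of Cd79a to Cd79b, the other signalling subunit, lay between 0.736 and 0.893. Ms4a1 stood at 494, 498 and 541 CPM in females and at 514, 434 and 521 CPM in males, a spread of 1.25 times. Its log2 fold change was -0.06 with a standard error of 0.13 (edgeR adjusted p = 0.915). For both genes the sexes overlapped, and the sign turned when female 2 (Cd79a) or male 2 (Ms4a1) was left out.

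**Figure D4:**
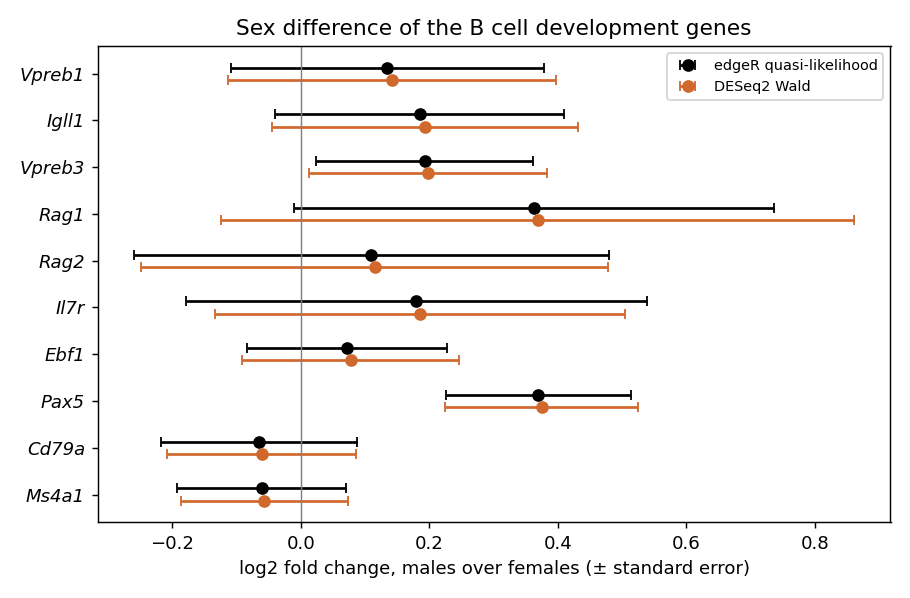
Log2 fold change of males over females for each gene with its standard error, from edgeR (black) and DESeq2 (orange); the vertical line marks no difference. Pax5, at 0.37, lies farthest from 0 relative to its error, and Cd79a and Ms4a1 are the 2 genes below 0.

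The partners of these genes were read from lists. Of 15 genes of B cell receptor signalling, 0 were called by either tool, 1 (Dok3) had an unadjusted edgeR p under 0.05, and the median log2 fold change was -0.04. Blnk, the adaptor of the receptor, and Blk, a kinase of the Src family, had log2 fold changes of 0.08 and -0.07, and Cd22, an inhibitory coreceptor, one of -0.21 with a standard error of 0.15 (edgeR adjusted p = 0.704). Of 14 mature B cell genes, 0 were called by either tool and 1 (S1pr1) had an unadjusted edgeR p under 0.05, with 4 above 0 and 10 below and a median of -0.08. Cr2 and Fcer2a, the complement receptor and the IgE receptor of mature B cells, had log2 fold changes of -0.29 and -0.33 with standard errors of 0.17 (Cr2) and 0.18 (Fcer2a), and Cd37, a tetraspanin, one of -0.07. None of these passed the test. The 3 immunoglobulin constant region genes measured (Ighm, Igkc and Iglc2) and Jchain, the joining chain of secreted IgM and IgA listed with them, all lay below 0, with a median of -0.18, 0 called by either tool and 0 with an unadjusted edgeR p under 0.05, and Igkc stood at 1180 ± 257 CPM in females and 982 ± 128 CPM in males (SD, n = 3 each).

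Of 12 genes of V(D)J recombination, 0 were called by edgeR or DESeq2, 0 had an unadjusted edgeR p under 0.05, and the median log2 fold change was 0.14, with 9 genes above 0. Dntt, which adds bases at the joints, lay between 9.40 and 11.8 CPM over the 6 libraries, so that its lowest libraries, again male 3 and female 2 (9.55 CPM), were close to the others. Female 2 and male 3 were the lowest 2 libraries for 5 of the 12 (Rag1, Rag2, Dntt, Xrcc6 and Lig4), and the other 7, among them Prkdc and Xrcc5, had another order. Xrcc6, which encodes the Ku70 repair protein, and Lig4, the ligase of the same pathway, were singled out after their values were seen. Xrcc6 stood at 65.5, 38.2 and 59.9 CPM in females and at 68.0, 66.8 and 43.6 CPM in males. Lig4 stood at 16.1, 8.53 and 12.1 CPM in females and at 19.1, 20.5 and 11.3 CPM in males. Of the 15 genes of B cell receptor signalling and the 14 mature B cell genes, 0 had this order. It was held by 2 of 10 cell cycle genes, 2 of 9 progenitor and pro-B genes and 1 of 9 interleukin 7 receptor signalling genes. In the pre-B cell receptor list it was 1 of 7, and among endothelial markers 1 of 22. Of all tested genes 6.99% had this order, and no test was run on these counts. Of 10 cell cycle genes 0 were called by either tool and 1 (Birc5) had an unadjusted edgeR p under 0.05, and their sum lay between 719 and 931 CPM in females and between 761 and 856 CPM in males.

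Of 9 genes of interleukin 7 receptor signalling, 0 were called by edgeR or DESeq2, 1 (Il7) had an unadjusted edgeR p under 0.05, and the median log2 fold change was -0.20. Il2rg, the shared γ chain, Jak3, the kinase bound to it, and Stat5a, the factor it activates, had log2 fold changes of -0.20, -0.27 and -0.28. Il7, the ligand made by stromal and endothelial cells of the marrow, stood at 8.35, 3.60 and 5.602 CPM in females and at 3.13, 1.79 and 4.28 CPM in males. The sexes overlapped, as female 2 lay below male 3, and the log2 fold change was -0.93 with a standard error of 0.38 (edgeR adjusted p = 0.453). Cxcl12, the chemokine that holds precursors near stroma, had a log2 fold change of -0.43 with a standard error of 0.32 (edgeR adjusted p = 0.708). Of the 6 niche factors measured, edgeR called 0, 5 lay below 0 and the median log2 fold change was -0.41. An unadjusted edgeR p under 0.05 was reached by 4 lower in males (Il7, Kitl, Vcam1 and Igf1) and 1 higher. DESeq2 called the latter, Tnfsf13b, which encodes the survival factor BAFF, with a log2 fold change of 0.69 (edgeR adjusted p = 0.244, DESeq2 adjusted p = 0.0264). The 10 stromal and 22 endothelial markers, Cxcl12 and Kitl among the former, had median log2 fold changes of -0.48 and -1.02. Their part in the values of Il7 and the niche factors was not tested. The 15 neutrophil markers had a median of 0.70, and their part in the Tnfsf13b values was not tested either.

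Of 9 surface and enzyme genes of progenitors and pro-B cells, edgeR called 0 and 4 had an unadjusted edgeR p under 0.05, with a median of 0.06. Flt3, a cytokine receptor of lymphoid progenitors, had a log2 fold change of 0.28 with a standard error of 0.19 (edgeR adjusted p = 0.684). Cd93, a surface protein of immature B cells that endothelial and myeloid cells also carry, stood at 88.9, 49.5 and 84.6 CPM in females and at 91.3, 72.0 and 50.7 CPM in males, lowest in female 2 and male 3. DESeq2 called 1 of the 9, Bst1, at 31.7 ± 1.17 CPM in females and 58.1 ± 12.7 CPM in males (SD, n = 3 each), with a log2 fold change of 0.87 (edgeR adjusted p = 0.0701, DESeq2 adjusted p = 1.308e-04). Without male 3 edgeR called it too (adjusted p = 0.0330), and without each of the other libraries it did not (highest adjusted p = 0.334). Bst1, an enzyme of the cell surface, is also carried by neutrophils. Of 15 neutrophil markers, 12 had no overlap between the sexes with males higher, against 7.25% of all tested genes. For Elane, Prtn3 and Mpo the sexes overlapped, and Mpo had a log2 fold change of -0.61. The 15 markers summed to between 19430 and 23690 CPM in females and between 32970 and 44980 CPM in males. The part of neutrophils in the Bst1 values was not tested.

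Markers of other cells stood beside the comparison as follows, with 0 genes called by edgeR in each list in the fit of all 6 libraries with TMM scaling and no covariate. Without male 3 edgeR called 5 neutrophil markers (Csf3r, Cxcr2, Ly6g, Mmp8 and Retnlg) and 1 endothelial marker (Stab2). The 15 neutrophil markers, with S100a9 the highest per kb and Csf3r the lowest, had a median log2 fold change of 0.70, and DESeq2 called 10 of them higher in males. The 22 endothelial markers had a median of -1.02, all 22 lay below 0, and DESeq2 called 7 lower in males, with Cldn5 the highest per kb and Sox17 the lowest. The 10 stromal markers had a median of -0.48, the 12 macrophage and monocyte markers one of -0.40, the 9 erythroid markers measured one of 0.27, the 12 T and NK cell markers one of -0.16 and the 8 dendritic cell markers one of -0.02. DESeq2 called 2 macrophage and monocyte markers, 1 T and NK cell marker (Cd4) and 1 stromal marker (Adipoq) lower in males, and 0 erythroid or dendritic cell markers. An unadjusted edgeR p under 0.05 was reached by 11 neutrophil, 16 endothelial, 4 stromal, 11 macrophage and monocyte, 4 erythroid, 1 T and NK cell and 0 dendritic cell markers. None of the markers in these lists was at 0 in any library. The sum of the 10 B cell genes overlapped between the sexes, as did those of stromal and dendritic cell markers. The sums of neutrophil and erythroid markers were higher in all 3 males. Those of endothelial, macrophage and monocyte, and T and NK cell markers were higher in all 3 females. Of the 12 T and NK cell markers only Cd4 had no overlap between the sexes. It lay between 47.1 and 50.7 CPM in females and between 27.8 and 37.1 CPM in males. Log2 fold changes of the 12 lay below 0 for 8 and above 0 for 4. Whether their sum differed without Cd4 was not tested. The part of the cells of these lists in the values of the 10 genes was not tested.

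**Figure D5:**
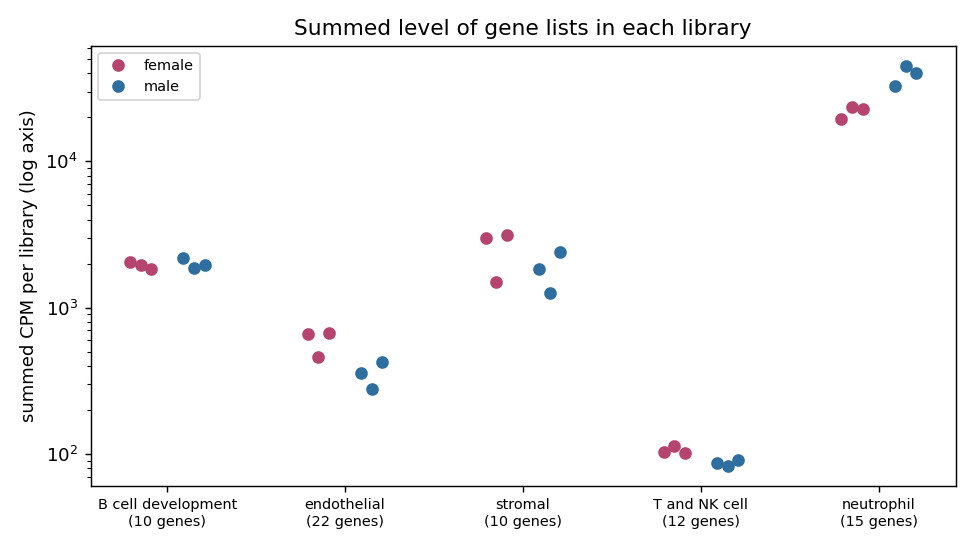
Summed CPM of 5 gene lists in each library, on a log axis (points: libraries; red, females; blue, males). The B cell development genes lie between 1847 and 2194 CPM with the sexes intermixed, while the endothelial sums are higher in females and the neutrophil sums higher in males.

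The protein-coding genes outside all lists whose log2 CPM was most like the mean log2 CPM of the 10 genes, among 10316 genes searched, were Prdm10, Atp1b1, Zfp760, Zranb2 and Supt7l. Their Pearson correlations over the 6 libraries were 0.981, 0.976, 0.969, 0.968 and 0.963, which describe these libraries and carry no test. Atp1b1, a subunit of the sodium pump, stood at 155, 80.5 and 125 CPM in females and at 182, 142 and 98.2 CPM in males, so that female 2 was lowest and male 3 next, as for Rag1.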

How the data were processed

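RNA of BECs was sequenced in 3 female and 3 male libraries, grouped by the sample labels. The authors deposited raw counts of reads, as whole numbers, for each gene in each library, neither normalized nor pooled. The methods of the study name STAR on GRCm39 and featureCounts, with 100-base reads, whereas the processing notes of the submitters name TopHat2 2.0.11, featureCounts and the builds mm9 and NCBIM37, and the labels give 40-base reads. The build of the counts could not be settled, nor are the annotation release and the strand setting given in the sources used here, so gene levels depend on choices that cannot be checked. Symbols and exon lengths came from GENCODE M39, which matched 31073 of 37991 identifiers and 96.2% of counts. Ighd, Iglc1, Iglc3, Flt3l and Ahsp had no match and were not analysed here.

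Counts were filtered with filterByExpr by sex (19480 genes kept, all 10 B cell genes among them), scaled by TMM and tested with edgeR 4.0.16 (robust quasi-likelihood, males over females, no covariate, Benjamini-Hochberg adjustment over all genes tested, called at an adjusted p under 0.05) in R 4.3.3. Alternatives were DESeq2 1.42.0, other scalings and filters, a replicate block and leaving out each library. The steps were tested on simulated data. Named genes were the 10 members, chosen partners from the lists, the markers highest and lowest per kb and the 5 genes most alike. The latter had a mean of at least 5 CPM, and likeness was taken on log2 of CPM. Any list gene past the edgeR threshold was to be named, and none passed it. Some, but not all, list genes called by DESeq2 or with an unadjusted p under 0.05 were named too, as were some singled out for their values. Members and lists were chosen with earlier results of these data known. Promoters came from RefSeq (GRCm38.p6), and Vpreb1 and Vpreb2 were matched to their identifiers by an exact match of those 300 bases. A gene of the partner list is not reported here. Sequences were read with Python 3.11.15 and aligned with Biopython 1.88.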

Additional observations from a re-analysis of the deposited data

How the results depend on the processing

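No B cell gene of the 10 was called under any of the 14 alternatives. Their median log2 fold change stayed between 0.13 and 0.18 under the alternatives that keep all libraries, and lay between -0.003 and 0.36 when a library was left out. The count of all genes called, 8, became 14 with total counts alone, 98 without a filter on low counts, 345 with DESeq2 and 428 with the replicate block, and lay between 5 (without female 2) and 96 (without male 3) when a library was left out. The cause of these shifts was not tested. With the replicate block the median of the 10 genes was 0.18, and among the lists the block called 14 endothelial, 9 neutrophil, 2 stromal, 2 macrophage and monocyte and 1 T and NK cell marker and Bst1 (adjusted p = 0.00298). Same-numbered libraries deviated together with correlations of 0.194, 0.040 and 0.298, and male 2 correlated best with female 1 (0.131), so the libraries share a number and were not taken as pairs.

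For the 10 genes and the chosen partners, a log2 fold change changed sign in 35 cases. All came from leaving out a library, always at an adjusted p above the threshold. The lowest and highest values were -0.057 and 0.67 for Rag1, -0.23 and 0.45 for Rag2, -0.10 and 0.46 for Il7r, -0.007 and 0.42 for Igll1, -0.011 and 0.26 for Ebf1, -0.16 and 0.017 for Cd79a and -0.11 and 0.019 for Ms4a1. Among the partners they were -0.51 and 0.003 for Vpreb2, -0.076 and 0.062 for Cd79b, -0.28 and 0.009 for Ighm, -0.049 and 0.12 for Dntt, -0.14 and 0.21 for Tcf3, -0.091 and 0.13 for Foxo1, -0.33 and 0.14 for Ikzf3, -0.076 and 0.20 for Pou2af1, -0.029 and 0.18 for Blnk, -0.21 and 0.058 for Blk, -0.28 and 0.13 for Cd93 and -0.20 and 0.014 for Cd37. The other 441 values of these genes kept their direction and their side of the threshold. Other named genes, such as Bst1, were not among them. Bst1 had an edgeR adjusted p of 0.0701 in the main fit and of 0.0330 without male 3. Depth gave at least 156 counts for each of the 10 genes in each library.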
